A study of Mus musculus with 6 samples.

Results

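Complex I of the respiratory chain was followed through the genes that carry an Nduf name. The members were the protein-coding rows of the deposited expression table whose symbol begins with Nduf, which gave 46 of the 53465 genes listed. Of these, 38 are named as structural subunits (Ndufa, Ndufab, Ndufb, Ndufc, Ndufs and Ndufv) and 8 are assembly factors (Ndufaf). Ndufa4 and Ndufa4l2 are counted among the 38 by name, although their proteins are now assigned to complex IV. After a filter on low counts 45 members were tested, and Ndufa4l2, with at most 2 counts in any library, was not.

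Complex I takes electrons from NADH, passes them along a chain of iron-sulfur clusters to ubiquinone, and pumps protons across the inner mitochondrial membrane. Its catalytic core is shared with bacteria and is encoded partly in the nucleus and partly in mitochondrial DNA, and a large set of accessory subunits surrounds that core. Assembly factors bind and modify parts of the complex while it is put together and are absent from the finished enzyme. Blood stem cells are known to rely little on respiration while at rest.

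All cells came from wild-type mice irradiated over the whole body with 5.0 Gy, after which the controls received saline and the others carnosine, the natural dipeptide built from histidine and beta-alanine. Bone marrow cells were sorted for a long-term stem cell phenotype (LT-HSC), with c-Kit and Sca-1 present on the surface and with lineage markers, CD34 and Flk2 absent. Each treatment had 3 libraries of poly-A RNA, made with a stranded kit and sequenced from both ends, and no unirradiated animals entered the comparison. The sources used here give no age, dose of carnosine or time of collection, and they do not say whether the 3 libraries came from separate mice. The p-values therefore reflect no more than the spread among these libraries, which may be technical.

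Total counts ran from 12602067 to 16866534 per library. Transcripts of Kit (330 ± 10.2 CPM with saline, SD, n = 3) and of Ly6a, which encodes Sca-1 (30.2 ± 8.13 CPM), were present, but so were those of Flt3 (210.3 ± 8.64 CPM) and Cd34 (329 ± 19.0 CPM), whose proteins the gate excluded. CPM, the usual count scaled to library size, was taken after TMM normalisation, a method that centres most genes on no change. In the edgeR test described below, Kit rose with carnosine (log2 fold change 0.20, edgeR adjusted p = 0.00151) and Flt3 fell (-0.22, edgeR adjusted p = 0.00226). Cd34 (-0.13, edgeR adjusted p = 0.0502) and Ly6a (-0.06, edgeR adjusted p = 0.879) did not pass. Across all genes in that test, 19.6% rose and 19.8% fell. All 6 of 6 myeloid progenitor markers rose with carnosine, with a summed level of 3737 to 3763 CPM in the saline libraries and 7733 to 7984 CPM in the carnosine libraries. All 4 of 4 megakaryocyte markers fell, from summed levels of 336 to 359 CPM down to 137 to 143 CPM. Of the other lists, 5 of 7 erythroid markers rose and 1 fell, 1 of 6 stem cell markers rose and 2 fell, and 1 of 6 B and plasma cell markers fell. Among tested T and NK markers 2 of 3 rose and 1 fell, and among those of endothelium and stroma 2 of 3 fell. No marker of these lists was at 0 counts in every library, and the part of any of these shifts in the results that follow was not tested. In such bulk samples, fewer cells of a type and less RNA per cell cannot be told apart.

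With carnosine, 12 of the 45 tested members changed. The 2 that rose were Ndufs1, the largest subunit of the catalytic core, and the assembly factor Ndufaf1. The 10 that fell were all accessory subunits, by 11.2% to 18.8% each: Ndufa1, Ndufa2, Ndufa3, Ndufa6, Ndufa7, Ndufa8, Ndufa13, Ndufb11, Ndufs4 and Ndufs6. A change means a Benjamini-Hochberg adjusted p under 0.05 in edgeR's quasi-likelihood test, adjusted over the 15533 genes tested. In the same test 39.4% of all tested genes changed, against 26.7% of the members. Genes that fell made up 22.2% of the members and 19.8% of all tested genes, which is close, while genes that rose made up 4.4% of the members and 19.6% of all tested genes. The 3 libraries of one group lay wholly above or below those of the other for 20 of the 45 members, or 44.4%, against 52.3% of all tested genes.

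These calls were small changes, with an edgeR adjusted p of 0.0128 to 0.0431 except for Ndufs1, at 0.00104. Only the call of Ndufs1 held under every alternative processing tried. With any 1 library left out, 5 to 8 members were called in place of 12, while the share of all tested genes called went from 39.4% to 33.4% or less. The count of members that fell dropped from 10 to 5 without saline library 1, 2 or 3 or carnosine library 1 or 2, and to 4 without carnosine library 3. The count that rose was 1 without saline library 2, carnosine library 2 or carnosine library 3. DESeq2's Wald test called 4 members, 2 higher and 2 lower, and 28.6% of all tested genes. On the deposited FPKM values, which are scaled by each library's total count, 3 members rose and 7 fell, and 61.1% of all calls were rises against 49.7% on the TMM scale.

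**Figure D1:**
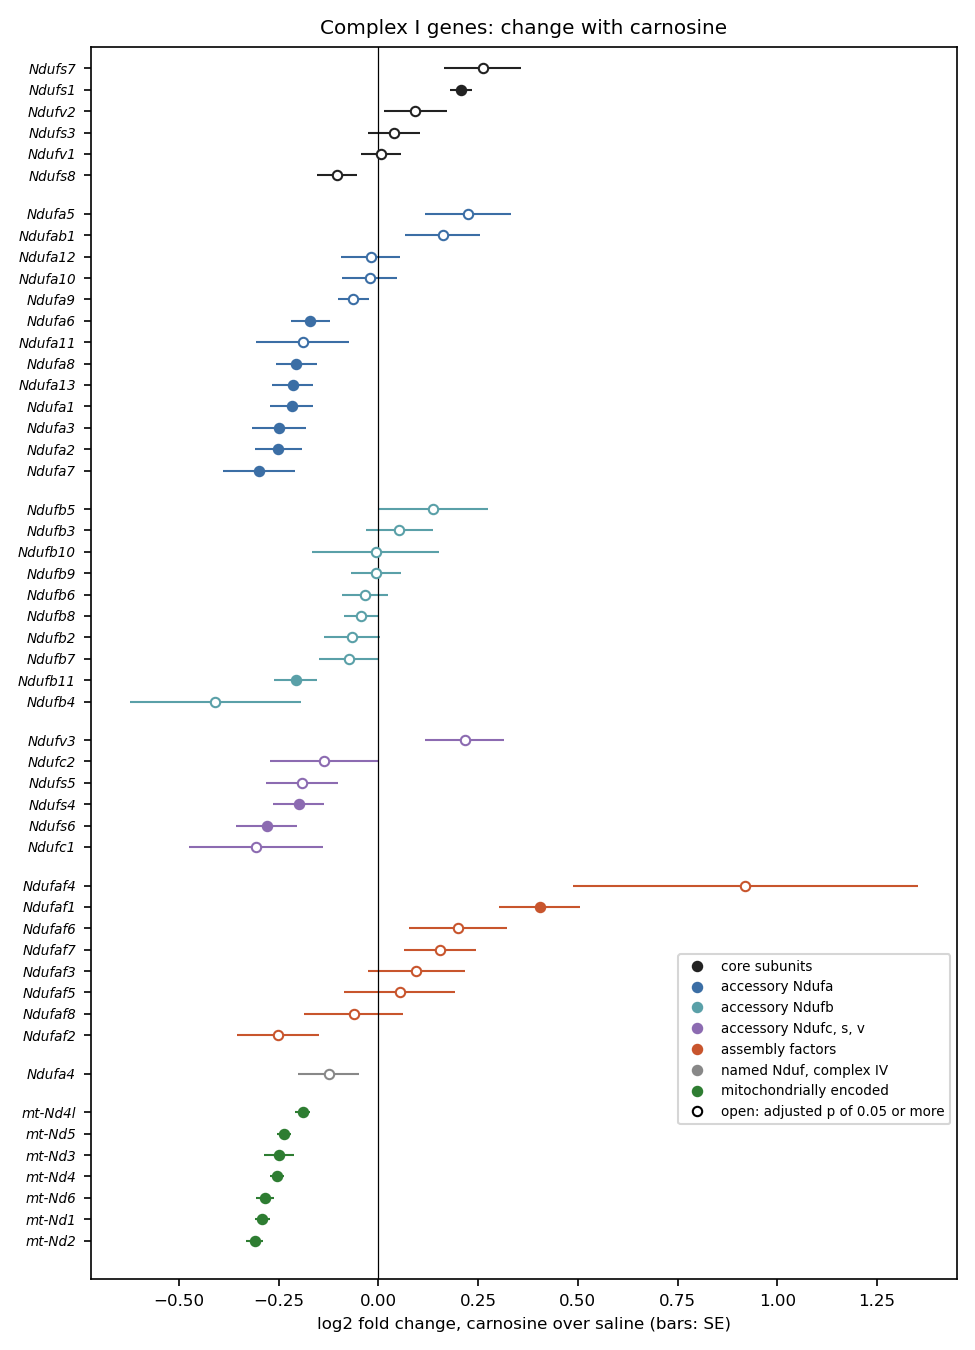
Log2 fold change of carnosine over saline for tested Nduf genes and the 7 mitochondrially encoded subunits, grouped by class; bars are 1 SE from edgeR and filled points have an adjusted p under 0.05. The filled points among accessory subunits all lie to the left of 0, as do all 7 mitochondrially encoded genes.

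The core of complex I holds 7 nuclear-encoded proteins, of which 1 changed (14.3%, against 39.4% of all tested genes). Ndufs1 (ENSMUSG00000025968, chr1:63143596-63176833, GRCm38), the subunit that carries iron-sulfur clusters in the NADH-oxidising arm, had 132, 136 and 134 CPM in the saline libraries and 156, 153 and 156 CPM in the carnosine libraries. All 3 carnosine libraries lay above all 3 saline libraries. The log2 fold change was 0.21 ± 0.0276 (SE; edgeR adjusted p = 0.00104), and the adjusted p stayed between 0.00386 and 0.00551 when any library was left out. Part of the Ndufs1 exons, 489 bases, lies opposite an exon of the non-coding gene Ino80dos.

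Ndufs7, the core subunit that holds the last iron-sulfur cluster before ubiquinone, had 38.2, 29.7 and 36.6 CPM with saline and 41.3, 40.3 and 43.7 CPM with carnosine. The groups did not overlap, but saline library 2 was lower than the other two and the gene missed the threshold (log2 fold change 0.26 ± 0.0973, edgeR adjusted p = 0.0704). It passed without saline library 1 (adjusted p = 0.0455) and in 4 other alternatives, among them the correction for gene length and GC content, where the edgeR adjusted p was 0.0198. Ndufs8, which carries a pair of iron-sulfur clusters, averaged 55.0 ± 0.367 CPM with saline against 51.2 ± 2.50 CPM with carnosine (n = 3 each). Its groups did not overlap, and the log2 fold change of -0.10 had an edgeR adjusted p of 0.146. Ndufv2 (log2 fold change 0.09), Ndufs3 (0.04) and Ndufv1 (0.01), the flavin-bearing subunit that receives electrons from NADH, were closer to no change. The median log2 fold change of the 7 core genes was 0.04.

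Among the accessory Ndufa genes, counted with Ndufab1 and without Ndufa4, 7 of 13 fell and none rose. Those that fell made up 53.8%, against 19.8% of all tested genes, of which 19.6% rose. Ndufa2, a small protein with a thioredoxin-like fold in the NADH-oxidising arm, had 36.5, 37.8 and 37.2 CPM with saline and 33.2, 30.1 and 30.4 CPM with carnosine. Every carnosine library was below every saline library, with a log2 fold change of -0.25 ± 0.0584 (edgeR adjusted p = 0.0128). Ndufa13, a membrane-arm subunit also known for a role in cell death signalling, had 58.1, 57.8 and 61.1 CPM with saline and 52.1, 48.4 and 51.9 CPM with carnosine. It too was lower in all 3 carnosine libraries (log2 fold change -0.22 ± 0.0507, edgeR adjusted p = 0.0135).

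Ndufa1, a short membrane-anchored subunit encoded on the X chromosome, had 35.6, 34.5 and 34.0 CPM with saline and 29.0, 31.1 and 29.5 CPM with carnosine. Ndufa8, which lies on the intermembrane-space side, had 53.9, 54.7 and 52.2 CPM with saline and 45.9, 48.8 and 44.8 CPM with carnosine. For both genes the groups did not overlap, and the log2 fold changes were -0.22 ± 0.0541 and -0.21 ± 0.0515 (edgeR adjusted p = 0.0170 and 0.0172). Ndufa6, a subunit of the LYR family that binds the mitochondrial acyl carrier protein, was the member with the highest deposited FPKM, 104 ± 5.01 with saline and 96.5 ± 0.685 with carnosine. Its CPM values were 59.8, 62.4 and 56.9 with saline and 52.9, 53.5 and 52.8 with carnosine, again without overlap (log2 fold change -0.17, edgeR adjusted p = 0.0285). Ndufa3 and Ndufa7, named after their values were seen, fell by 0.25 and 0.30 on the log2 scale (edgeR adjusted p = 0.0235 and 0.0335).

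The falls of Ndufa2 and Ndufa13 passed the test with any library left out. Ndufa1 missed it without saline library 1, carnosine library 1 or carnosine library 3 (highest adjusted p 0.0601), and Ndufa3 without saline library 3, carnosine library 1 or carnosine library 2 (highest 0.0686). Ndufa8 passed only without saline library 3 or carnosine library 2, Ndufa6 only without saline library 3, and Ndufa7 only without carnosine library 1. Leaving out 1 library never turned the direction of these 7 genes.

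The remaining Ndufa genes did not pass. Ndufab1, the mitochondrial acyl carrier protein itself and the Ndufa-class member with the lowest FPKM, had 15.3 ± 1.38 CPM with saline against 17.2 ± 1.28 CPM with carnosine (log2 fold change 0.16, edgeR adjusted p = 0.216). Ndufa5, a subunit of the arm that reaches into the matrix, had overlapping groups at 22.0 ± 1.81 and 25.7 ± 3.32 CPM (log2 fold change 0.22, edgeR adjusted p = 0.145). Ndufa11 had 31.2, 29.2 and 31.3 CPM with saline and 27.6, 30.6 and 22.0 CPM with carnosine, where carnosine library 3 was the lowest of the 6. Its log2 fold change was -0.19 with all libraries and between -0.30 and -0.07 when 1 was left out. The median log2 fold change of the 13 genes was -0.19, beside 0.00 for all genes tested.

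**Figure D2:**
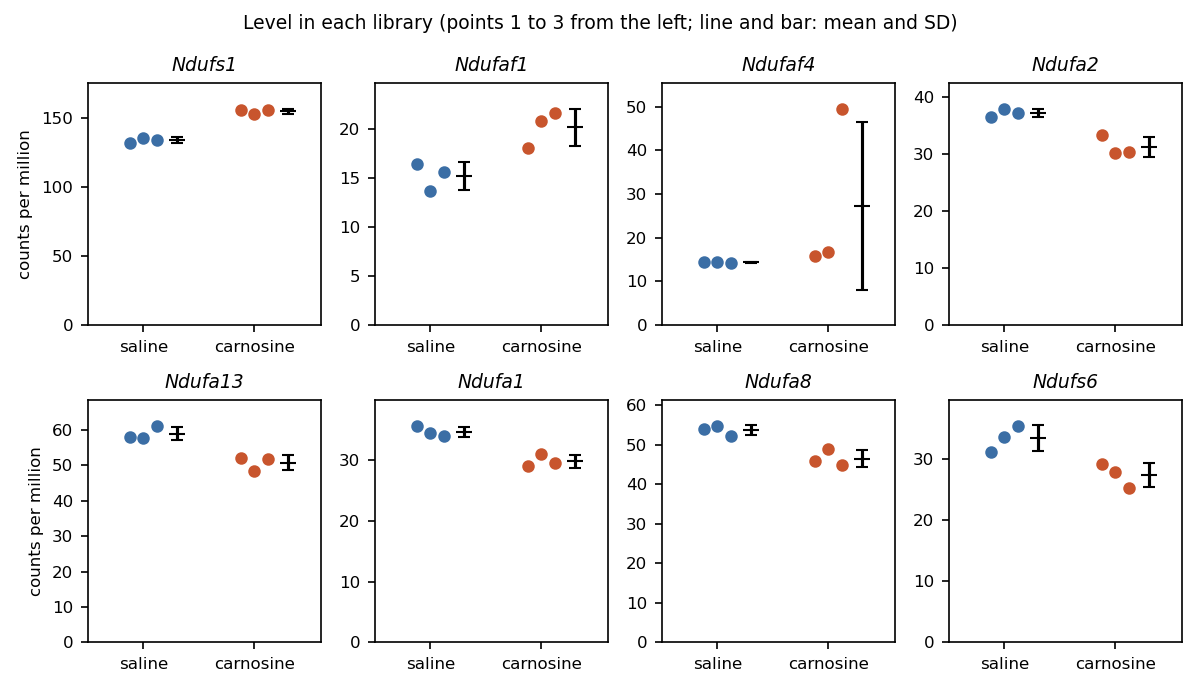
Level of 8 members in each library, in CPM from 0, with the mean and SD of each group beside the points. The carnosine points of Ndufs1 and Ndufaf1 lie above all saline points, those of the 5 accessory subunits lie below them, and for Ndufaf4 1 carnosine library stands far above the other 5 libraries.

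Ndufb genes encode subunits of the membrane arm, and 1 of 10 changed (10.0%, against 39.4% of all tested genes). Ndufb11, also X-linked and the member with the second highest FPKM, had 77.5, 72.7 and 82.0 CPM with saline and 67.7, 68.3 and 64.9 CPM with carnosine. The groups did not overlap (log2 fold change -0.21 ± 0.0543, edgeR adjusted p = 0.0205), although the call was lost without saline library 1, saline library 3 or carnosine library 3 (highest adjusted p 0.0641). Ndufb7, an intermembrane-space subunit, and Ndufb9, another LYR protein, differed by less than their spread, with log2 fold changes of -0.07 and -0.01. Ndufb5 had 39.7, 26.7 and 35.9 CPM with saline and 36.0, 37.1 and 39.3 CPM with carnosine, where saline library 2 was the lowest of the 6 (log2 fold change 0.14, edgeR adjusted p = 0.471). Ndufb10 showed the widest carnosine range of the class, with 49.2, 59.8 and 79.7 CPM against 66.7, 61.7 and 60.8 CPM with saline. Its log2 fold change was -0.01 with all libraries, 0.14 without carnosine library 1 and -0.21 without carnosine library 3. The class median was -0.04.

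Of the 6 accessory Ndufc, Ndufs and Ndufv genes, 2 fell (33.3%, against 19.8% of all tested genes) and none rose (against 19.6%). Ndufs6, a zinc-binding subunit of the NADH-oxidising arm, had 31.1, 33.6 and 35.3 CPM with saline and 29.1, 27.9 and 25.3 CPM with carnosine. Ndufs4, a subunit of the same arm whose loss causes Leigh-like disease in mice, had 30.5, 31.9 and 33.0 CPM with saline and 26.9, 26.7 and 29.4 CPM with carnosine. In both the carnosine libraries were all below the saline libraries, with log2 fold changes of -0.28 ± 0.0771 and -0.20 ± 0.0641 (edgeR adjusted p = 0.0246 and 0.0431). The call of Ndufs6 held only without saline library 1 or carnosine library 1, and that of Ndufs4 only without carnosine library 3.

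Ndufv3, an accessory partner of the flavin-bearing subunits, had the opposite sign, with 33.8, 43.2 and 42.6 CPM with saline and 44.7, 48.4 and 45.6 CPM with carnosine. Saline library 1 was far below the rest, and the gene did not pass (log2 fold change 0.22, edgeR adjusted p = 0.124). Ndufs5 had 11.3 ± 0.896 and 9.89 ± 0.359 CPM, and Ndufc1, the class member with the lowest FPKM, had 8.65 ± 1.68 and 6.94 ± 0.982 CPM (edgeR adjusted p = 0.136 and 0.193). Ndufc2, the class member with the highest FPKM, had 48.5, 45.4 and 33.3 CPM with carnosine against 44.9, 44.7 and 50.4 CPM with saline. Its log2 fold change moved from -0.14 to 0.01 when carnosine library 3 was left out.

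Among the 8 assembly factors 1 rose (12.5%, against 19.6% of all tested genes) and none fell (against 19.8%). Ndufaf1 (ENSMUSG00000027305, chr2:119655446-119662827), part of the membrane-arm assembly complex known as MCIA, had 16.5, 13.7 and 15.6 CPM with saline and 18.1, 20.8 and 21.7 CPM with carnosine. The carnosine libraries were all above the saline libraries (log2 fold change 0.41 ± 0.102, edgeR adjusted p = 0.0173). The call was lost by a small margin without saline library 2, carnosine library 2 or carnosine library 3, with adjusted p of 0.0526, 0.0537 and 0.0535.

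Ndufaf4 (chr4:24898083-24905001), which works with Ndufaf3 on the ubiquinone-binding module, had 14.4, 14.5 and 14.3 CPM with saline and 15.7, 16.8 and 49.5 CPM with carnosine. The groups did not overlap, but the difference rested on carnosine library 3, which stood far above the other 5 libraries. The log2 fold change was 0.92 ± 0.432 with an edgeR adjusted p of 0.135, and it was 0.18 without carnosine library 3. Ndufaf3 itself stood at 9.28 ± 1.28 CPM with saline against 9.93 ± 0.692 CPM with carnosine.

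Ndufaf2, a paralogue of a structural subunit that acts late in assembly, had 15.3, 15.5 and 19.1 CPM with saline and 14.2, 14.4 and 13.2 CPM with carnosine. It was lower in every carnosine library but missed the threshold (log2 fold change -0.25 ± 0.103, edgeR adjusted p = 0.0944), and 1955 bases of its exons lie opposite the non-coding gene B230220B15Rik. The other assembly factors had overlapping groups: Ndufaf7, a methyltransferase (log2 fold change 0.15), Ndufaf6 (0.20), Ndufaf5, a hydroxylase that acts on Ndufs7 (0.05), and Ndufaf8, its partner (-0.06). Their edgeR adjusted p ran from 0.221 to 0.793. Assembly factors had fewer counts than subunits, with a median of 12.9 CPM against 39.3 CPM.

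Set side by side, subunits and assembly factors had medians of opposite sign. The median log2 fold change was -0.07 over the 37 tested subunits, of which 27 were below 0, and 0.12 over the 8 assembly factors, of which 6 were above 0. By library, the median of log2 level relative to the saline mean was -0.01, -0.01 and 0.03 for subunits in the saline libraries and -0.10, -0.05 and -0.09 in the carnosine libraries. For assembly factors it was 0.01, -0.08 and -0.01 with saline and 0.08, 0.12 and 0.15 with carnosine. The carnosine libraries lay outside the saline range in both classes, in opposite directions. The sign of both medians was the same under every alternative, but on the FPKM scale the subunit median was close to 0, at -0.01 with either pseudocount. The median of all genes on that scale was 0.05 with a pseudocount of 1 and 0.06 with 0.1. No test of the difference between the classes was made, since the members were chosen by name and are not replicates.

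On the TMM scale, summed levels moved in the same directions. The subunits summed to 1926 ± 31.9 CPM with saline against 1874 ± 36.1 CPM with carnosine (n = 3 each), and the carnosine values of 1833, 1895 and 1895 CPM were all below the lowest saline value of 1897 CPM, the latter pair by less than the SD of either group. As a share of all counts, without TMM scaling, the subunits did not fall: they held 0.188%, 0.186% and 0.192% in the saline libraries and 0.187%, 0.193% and 0.193% in the carnosine libraries, with overlapping groups. The assembly factors summed to 107 ± 2.96 and 127 ± 20.3 CPM. Without Ndufaf4 their sums were 93.1, 89.1 and 95.1 CPM with saline and 99.2, 98.4 and 100.6 CPM with carnosine. The ratio of the subunit sum to the assembly factor sum, taken on counts, was 17.9, 18.3 and 17.9 in the saline libraries and 15.9, 16.5 and 12.6 in the carnosine libraries. Without Ndufaf4 it was 20.8 ± 0.398 and 18.9 ± 0.389, and the groups did not overlap in either form.

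**Figure D3:**
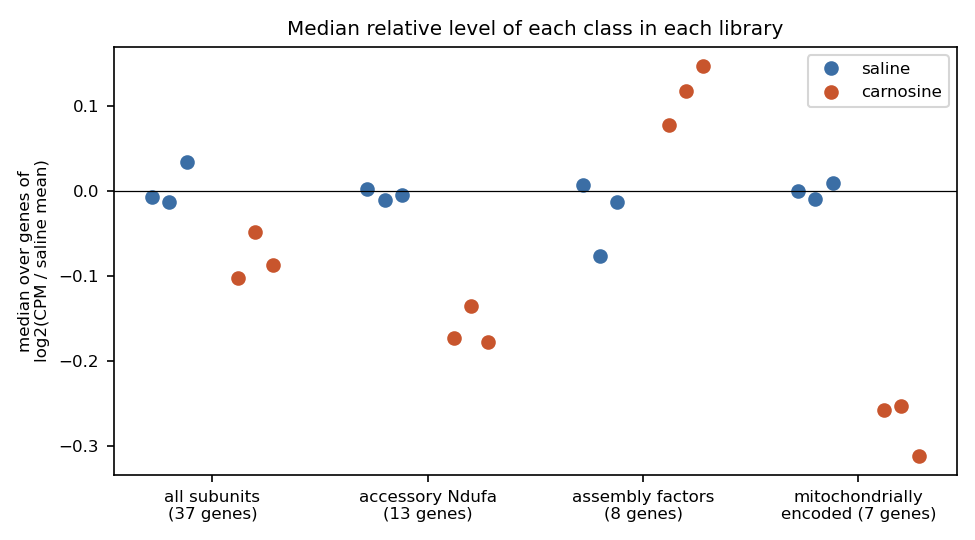
Median over the genes of each class of log2 level relative to the mean of the saline libraries, 1 point per library. The carnosine points lie below the saline points for all subunits, accessory Ndufa genes and mitochondrially encoded genes, and above them for assembly factors.

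Ndufa4 had the highest level per kilobase of principal transcript of all members. It had 74.2, 91.9 and 86.9 CPM with saline against 77.4, 76.7 and 77.8 CPM with carnosine (log2 fold change -0.13, edgeR adjusted p = 0.239), and without saline library 1 the change was -0.21 with an adjusted p of 0.0165. Ndufa4l2, its hypoxia-responsive paralogue, had 0, 2 and 0 counts in the saline libraries and 0, 0 and 1 in the carnosine libraries.

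The 7 subunits of complex I that mitochondrial DNA encodes all fell, each with groups that did not overlap. They form the proton-pumping part of the membrane arm. Across all tested genes, 19.8% fell and 52.3% had groups that did not overlap. mt-Nd1, at the joint of the arms, went from 3854, 3878 and 3886 CPM with saline to 3191, 3194 and 3113 CPM with carnosine (log2 fold change -0.29 ± 0.0187, edgeR adjusted p = 3.33e-05). mt-Nd2 had a log2 fold change of -0.31, mt-Nd6 of -0.28, mt-Nd4 of -0.25, mt-Nd3 of -0.25, mt-Nd5 of -0.24 and mt-Nd4l of -0.19. The 7 genes together held 1.55% to 1.56% of all counts in the saline libraries and 1.34% to 1.36% in the carnosine libraries. Their summed level was 8.27 ± 0.112 times that of the nuclear-encoded subunits with saline and 7.09 ± 0.162 times with carnosine.

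Of 13 listed assembly factors without an Nduf name, 12 were tested. Of these, 4 rose (33.3%, against 19.6% of all tested genes) and none fell (against 19.8%). Their median log2 fold change was 0.08, with 8 genes above 0 and 4 below. Tmem186 went from 17.8 ± 0.296 CPM with saline to 25.5 ± 0.324 CPM with carnosine (n = 3 each; log2 fold change 0.52 ± 0.0561, edgeR adjusted p = 0.000391). Tmem126b had 6.06, 6.88 and 7.31 CPM with saline against 9.42, 9.15 and 9.58 CPM with carnosine (log2 fold change 0.48 ± 0.101, edgeR adjusted p = 0.00852). Both encode proteins of the MCIA complex to which Ndufaf1 belongs, both had carnosine libraries that lay above all saline libraries, and both passed in every alternative. Acad9 and Ecsit, further MCIA proteins of the list, were named after their values were seen, as was Timmdc1. Acad9 had a log2 fold change of 0.20 with an edgeR adjusted p of 0.0490 that was lost on leaving out any library but saline library 3 (highest adjusted p 0.137), and Ecsit had one of 0.22 with an edgeR adjusted p of 0.0619. Foxred1 rose by 0.20 (edgeR adjusted p = 0.0331) and passed in 1 of the 6 fits with a library left out. Timmdc1 had overlapping groups and a log2 fold change of 0.01 (edgeR adjusted p = 0.907). Coa1, also listed, was not found under that symbol.

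The neighbouring complexes are given for comparison. Of the 34 listed nuclear-encoded subunits of complexes III to V, 12 fell (35.3%, against 19.8% of all tested genes) and none rose (against 19.6%). Their median log2 fold change was -0.12. The smallest p-values belonged to Uqcrh of complex III (log2 fold change -0.32) and to Atp5g3 (-0.25) and Atp5l (-0.55) of the ATP synthase. Of 8 complex II genes 1 rose and 1 fell, or 12.5% each, against 19.6% and 19.8% of all tested genes. Sdhaf2, an assembly factor that adds the flavin, rose by 0.23 and Sdhb, the iron-sulfur subunit, fell by 0.13. The call of Sdhaf2 held only without saline library 3 or carnosine library 3 (highest adjusted p 0.125), and that of Sdhb only without saline library 3 or carnosine library 1 (highest 0.0916). Among 78 genes of the mitochondrial ribosome 17 rose (21.8%, near the 19.6% of all tested genes) and 1 fell (1.3%, against 19.8%). Their median log2 fold change was 0.04, and those with the smallest p-values were Mrps31 (0.68), Mrpl44 (0.56) and Mrps10 (0.43).

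Of 10 tested regulators of mitochondrial genes, 1 rose and 1 fell (10.0% each, against 19.6% and 19.8% of all tested genes). Yy1, a zinc-finger factor, had 305, 303 and 295 CPM with saline against 248, 244 and 253 CPM with carnosine (log2 fold change -0.28 ± 0.0260, edgeR adjusted p = 0.000198). Tfb1m, which methylates mitochondrial ribosomal RNA, had 14.0, 14.0 and 13.9 CPM with saline against 16.2, 17.4 and 17.8 CPM with carnosine (log2 fold change 0.30 ± 0.0684, edgeR adjusted p = 0.0125). Both genes had groups that did not overlap. Ppargc1b, a coactivator, had a log2 fold change of 0.21 and an edgeR adjusted p of 0.0711, and Ppargc1a was too low to be tested.

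The order of the members by level depended on the length used. The deposited FPKM divides by a gene length that exceeded the principal GENCODE transcript by more than 1.5 times in 34 of the 45 tested members, and by 7.81 times at most, in Ndufb7. Ndufb7 thus ranked 24 of 46 by FPKM (12.9 ± 1.23 with saline) but 4 of 46 by CPM per kilobase of principal transcript (103 with saline). Ndufs1 ranked 23 by FPKM, at 11.8 ± 0.192 with saline, and 16 by CPM per kilobase of principal transcript, at 50.4. Under both lengths Ndufb4, Ndufb2 and Ndufab1 were the lowest tested subunits, and each of the 8 assembly factors ranked 27 or lower.

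**Figure D4:**
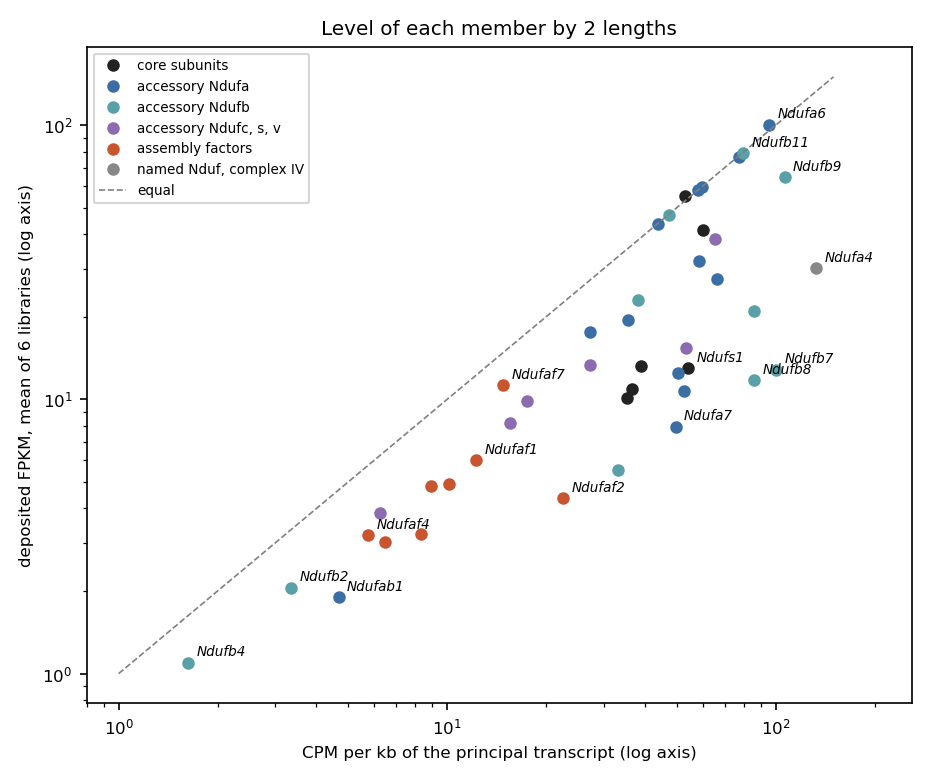
Level of tested members on log axes, as CPM per kilobase of the principal transcript (horizontal) and as deposited FPKM (vertical), with equal values on the dashed line. Ndufb7 and Ndufb8 fall far below the line, and the assembly factors lie toward the lower left.

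Some members have near-identical copies elsewhere in the genome. Searching the transcripts of all annotated genes found processed pseudogenes of at least 95% identity for 8 members, and how the authors' counting split shared reads was not given in the sources used here. For 3 pairs the sequences are shown over 90 bases of the coding sequence, from the GENCODE M21 transcripts of GRCm38, because they set how far a read can tell the copies apart. Capitals mark the bases that differ, and the shown stretch begins at coding base 1 for Ndufb4 and Ndufs6 and at coding base 16 for Ndufs5.
Ndufb4: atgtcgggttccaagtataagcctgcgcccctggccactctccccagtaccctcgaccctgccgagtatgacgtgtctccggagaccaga
Ndufb4c: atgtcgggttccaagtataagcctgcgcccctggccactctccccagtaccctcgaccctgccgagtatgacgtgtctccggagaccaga
Ndufs5: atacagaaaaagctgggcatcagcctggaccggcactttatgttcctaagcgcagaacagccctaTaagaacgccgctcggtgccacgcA
BC002163: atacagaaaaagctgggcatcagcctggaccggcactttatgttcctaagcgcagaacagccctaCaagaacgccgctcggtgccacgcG
Ndufs6: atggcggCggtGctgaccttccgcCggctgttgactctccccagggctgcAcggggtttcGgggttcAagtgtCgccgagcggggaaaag
Ndufs6b: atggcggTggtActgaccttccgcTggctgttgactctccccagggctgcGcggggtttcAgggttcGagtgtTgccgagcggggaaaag
Ndufb4 and Ndufb4c do not differ at any of 387 aligned coding bases, Ndufs5 and BC002163 differ at 2 of 318, and Ndufs6 and Ndufs6b at 12 of 347.

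Ndufb4 held 134 counts over the 6 libraries and its copy 466. Its log2 fold change was -0.41 ± 0.215 alone and -0.03 with the counts of the copy added, an alternative chosen after seeing the data. Ndufs5 held 905 counts and BC002163 936, and the log2 fold change went from -0.19 to -0.04 when they were added. Ndufs6, with 2585 counts against 412 in Ndufs6b, kept its call with the copy added (log2 fold change -0.25, edgeR adjusted p = 0.0229). Ndufab1 has 2 such copies, Ndufab1-ps and Gm4459, with 2436 and 1092 counts against its own 1379, and Ndufa12 has Gm15920, with 3398 counts against 3328. Levels of Ndufb4, Ndufs5, Ndufab1 and Ndufa12 are therefore uncertain. For Ndufs3, Ndufb11 and Ndufb3 the copy held fewer counts than the member, 464 against 3244, 210 against 6137 and 17 against 3053. Exons of 17 members also overlap a gene on the opposite strand, among them 6 of the 12 that changed, and whether strand was used in counting was not given in the sources used here. Exons of Ndufb2, Ndufb8 and Ndufb9 overlap those of another protein-coding gene on the same strand, by 145, 134 and 201 bases. Strand cannot separate such reads.

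The balance of higher and lower calls differed between short and long transcripts across the whole table, without a steady trend. With all tested genes in 4 equal groups by length of the principal transcript, the group of 59 to 1443 bases had a median log2 fold change of -0.08, with 11.8% higher and 21.3% lower. The next group, of 1444 to 2589 bases, had a median of 0.03, with 20.0% higher and 16.5% lower. The group of 2590 to 4086 bases had a median of 0.05, with 24.1% higher and 17.3% lower. In the longest group, from 4087 bases, the median was 0.00 and lower calls again outnumbered higher ones, at 24.1% and 22.4%. Most members are short: 31 of the 45 belong to the shortest group, where none rose and 9, or 29.0%, fell. Within that group the median was -0.14 for 27 subunits and -0.0046 for 4 assembly factors, and within the next it was -0.02 for 7 subunits and 0.15 for 3 assembly factors. With each library corrected for transcript length and GC content, 8 members fell and 3 rose, in place of 10 and 2. In that fit Ndufa13 and Ndufa7 no longer passed (edgeR adjusted p = 0.0809 and 0.0656), and Ndufs7 did.

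**Figure D5:**
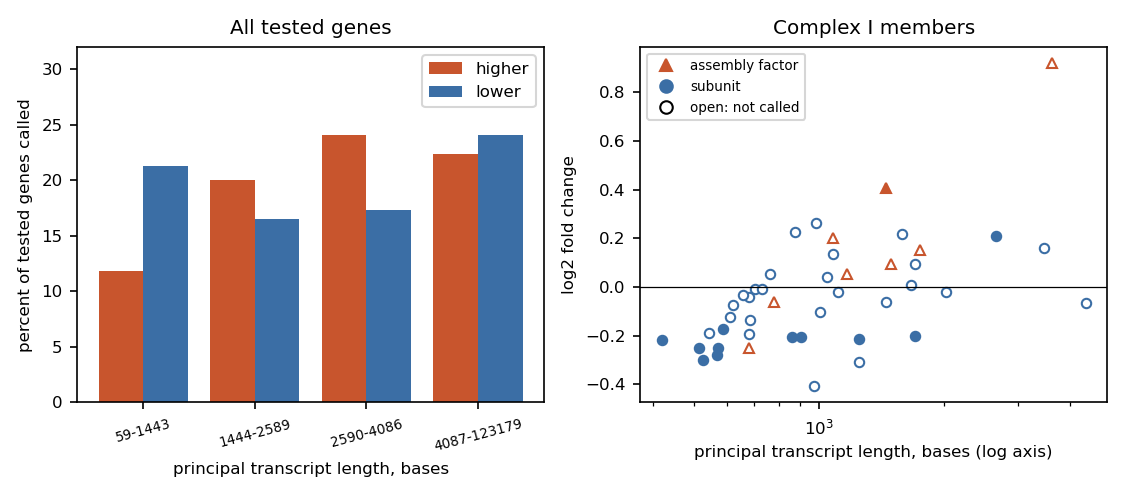
Left, percent of all tested genes called higher or lower with carnosine in 4 groups by principal transcript length in bases; right, log2 fold change of tested members against principal transcript length on a log axis, filled where called. The shortest group has more lower than higher calls (21.3% and 11.8%), and 9 of the 10 members that fell lie in it.

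The promoters of 4 members are shown as examples of windows that hold the searched motifs, from 1 member that rose, 2 that fell and Ndufaf4, and were picked after their values were seen. Sequences are RefSeq windows on GRCm38.p6, 150 bases upstream of any annotated transcript of the gene. They end next to the RefSeq start, except that of Ndufa6, where 31 bases next to the start are left out and the printed sequence ends before them. Capitals mark matches to the motifs searched on both strands: GCGCATGC (NRF1), CCGGAAG (ETS factors), ATGGCGG (YY1), TATAAA and CCAAT, where the NRF1 motif can overlap its own reverse complement.
Ndufaf1 promoter, chr2:119662835-119662984, reverse strand: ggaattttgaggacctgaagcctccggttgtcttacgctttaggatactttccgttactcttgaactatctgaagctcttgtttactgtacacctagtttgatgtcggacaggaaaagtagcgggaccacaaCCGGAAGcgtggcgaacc
Ndufaf4 promoter, chr4:24897933-24898082, forward strand: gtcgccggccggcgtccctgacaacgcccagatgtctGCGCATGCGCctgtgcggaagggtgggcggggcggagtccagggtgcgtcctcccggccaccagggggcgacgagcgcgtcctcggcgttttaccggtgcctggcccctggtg
Ndufa6 promoter, chr15:82354323-82354472, reverse strand: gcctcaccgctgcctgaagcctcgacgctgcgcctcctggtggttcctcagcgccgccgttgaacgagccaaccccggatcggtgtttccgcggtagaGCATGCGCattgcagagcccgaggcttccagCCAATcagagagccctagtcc
Ndufa7 promoter, chr17:33824422-33824571, forward strand: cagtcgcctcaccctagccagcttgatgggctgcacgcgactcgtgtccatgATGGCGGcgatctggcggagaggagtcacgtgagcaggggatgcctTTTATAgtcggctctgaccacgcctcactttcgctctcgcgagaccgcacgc
Ndufaf1, which rose, has an ETS match 18 bases before its start, and Ndufaf4 has an overlapping pair of NRF1 matches. Ndufa6, which fell, has an NRF1 match 83 bases before its start and a CCAAT match, and Ndufa7, which fell, has a YY1 and a TATA match.

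Windows of 250 bases before the start were found for 40 of the 46 members. The NRF1 letters were in 4 of the 40, or 10.0%, against 4.7% of the windows of 10137 tested genes and 2.9% of all 20389 windows. The YY1 letters were in 3, or 7.5% (3.9% of tested genes and 2.5% of all windows), and the ETS letters in 5, or 12.5% (14.4% and 8.6%). TATAAA was in 4, or 10.0% (6.4% and 12.2%), and CCAAT in 14, or 35.0% (36.4% and 35.0%). Of the 10 changed members with a window, 2 held the NRF1 letters, 2 those of YY1, 1 those of ETS factors, 2 TATAAA and 5 CCAAT. These are matches of letters in a window and describe the sequence alone.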

How the data were processed

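Poly-A RNA of cells sorted as LT-HSCs from irradiated mice, 3 libraries with saline and 3 with carnosine, was sequenced as stranded paired-end libraries, per the labels' protocols. The submitters' processing notes name CASAVA 1.8, HISAT2, StringTie, edgeR and the build GRCm38, with no roles. The deposited table gives a whole-number count and an FPKM value per gene and library, per the file headers. The deposited FPKM was checked to be each count over the length and the total count, within 1%, for 100% of genes that average 100 counts or more. The annotation, the use of strand and the handling of multi-mapping reads were not given in the sources used here.

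The main test used edgeR 4.0.16 (R 4.3.3) on the counts: filterByExpr (15533 of 53465 genes, 99.8% of counts), TMM scaling and the quasi-likelihood F-test, carnosine against saline, with Benjamini-Hochberg adjustment over all tested genes at 0.05. The SE is the log2 fold change divided by the square root of F. Levels are TMM-scaled CPM, mean ± SD of 3 libraries. The procedure was tested on simulated counts. Squared differences between libraries of a group were 1.74 to 2.03 times sampling noise, and 10.7 to 12.6 times between groups, so no library was taken for a duplicate.

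Members and gene lists were chosen with earlier results of these data known. The genes named are all assembly factors and core subunits, in each other class the 4 with the smallest p, the 2 with the highest FPKM and the lowest, and up to 3 per list by p; others are marked in the text. An item that falls under this rule is not reported here. Ndufa5, Ndufa11 and Ndufb10 were added after their values were seen. Transcript lengths and copies come from GENCODE M21 (BLAST+ 2.17.0; at least 150 bases at 95% identity over 40% of the member or 80% of the copy). Alternatives were other scalings, filters (none, or 5 CPM in 3 libraries) and tests (DESeq2 1.42.0, limma 3.58.1 voom, limma-trend on log2(FPKM + 1) and log2(FPKM + 0.1)). Further ones were a replicate block, a correction for transcript length and GC content (splines of 5 degrees of freedom), each library left out, and, added later, copies summed.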

Additional observations from a re-analysis of the deposited data

How the results depend on the processing

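Of the 12 calls among 45 members, those of Ndufs1, Ndufa2 and Ndufa13 passed with any library left out. With 1 library left out, the count of members called ran from 5 to 8, the count higher from 1 to 3 and the count lower from 4 to 5, and the medians ran from -0.09 to -0.06 for subunits and from 0.11 to 0.15 for assembly factors. DESeq2's Wald test called 4 members, of which 2 were lower. It called 28.6% of all tested genes, and each fit with a library left out called 33.4% or less, against 39.4% in the main test. The causes of these differences were not tested, beyond the smaller number of samples where a library was left out. Fitting log2(FPKM + 1) moved the subunit median to -0.00687, and log2(FPKM + 0.1) moved it to -0.00996 and the assembly factor median to 0.18. The FPKM values carry no TMM scaling, and on them the median of all genes was 0.05 and 0.06.

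With the replicate number as a block, 6 members were lower in place of 10 and 2 higher. That fit called 33.7% of all tested genes, against 39.4% in the main test. Whether the numbers pair the libraries was not given in the sources used here. Deviations of same-numbered libraries from their group means correlated only at 0.01, 0.03 and 0.02 across genes, although each library correlated best with its own number.

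Counts and medians were otherwise within 1.5 times the main count or within the spread between libraries under the other scalings, filters, limma-voom, the length and GC correction with and without the block, leaving out Ndufa4 and Ndufa4l2, members with a mean count of at least 100, and the added copies. Over 1097 single-gene results for 61 named genes, 948 kept their direction and side of the threshold, 105 lost a call, 14 gained one and 30 turned direction. None of the 30 was a member called in the main test.

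The reversals were of members that missed the threshold. On log2(FPKM + 1) and log2(FPKM + 0.1) the log2 fold changes were 0.00744 and 0.0102 for Ndufaf8, 0.0499 and 0.0506 for Ndufb9 and 0.0246 and 0.0246 for Ndufb10. With the length and GC correction, alone and with the replicate block, they were 0.00768 and 0.0111 for Ndufb7, 0.0221 and 0.0229 for Ndufb9 and 0.0474 and 0.0220 for Ndufb10. Ndufv1 was at -0.000258 with no filter and -0.00112 with at least 5 CPM in 3 libraries. With 1 library left out, Ndufaf3 ran from -0.000156 to 0.21, Ndufaf5 from -0.0868 to 0.17, Ndufaf8 from -0.13 to 0.0720, Ndufb10 from -0.21 to 0.14, Ndufb5 from -0.0141 to 0.27, Ndufb7 from -0.14 to 0.00123, Ndufb9 from -0.0606 to 0.0280, Ndufc2 from -0.24 to 0.010002, Ndufs3 from -0.0215 to 0.0834 and Ndufv1 from -0.0240 to 0.0332.

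Ndufb4, with the fewest counts of the tested members (134 over the 6 libraries), had an SE of 0.215 on the log2 scale, against 0.0276 for Ndufs1. How far depth limited the calls was not tested.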

Other observations

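Ndufb1-ps, annotated as a non-coding gene and so outside the rule although its description names subunit B1, had 384, 283 and 220 counts in the saline libraries and 232, 221 and 186 in the carnosine libraries, a log2 fold change of -0.34 ± 0.119 (edgeR adjusted p = 0.0564). The pseudogenes Ndufab1-ps, Ndufb4c and Ndufs6b had log2 fold changes of -0.05, 0.08 and -0.03, with edgeR adjusted p of 0.668, 0.680 and 0.874, and Ndufa11b had at most 2 counts in any library.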
